A study of Sus scrofa with 12 samples.

Results

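The genes described here encode the proteins of the cytosolic ribosome. They were taken from the deposited gene table by symbol: every annotated locus named RPL or RPS with a number, together with RPSA, RPLP0, RPLP1 and RPLP2 and without the RPS6 kinases, keeping for each symbol the locus with the highest mean level. The search gave 79 genes among the 30012 loci of the table, 47 of the large subunit and 32 of the small subunit. The choice used the mean level over all 12 libraries and no difference between groups.

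The study sequenced polyadenylated RNA of pig cells as 100 bp paired reads, with 3 libraries in each of 4 groups. The fibroblasts were cultured from a fetus of day 30 of gestation and were at passage 6. The embryonic stem cells (ESCs) were ESC3 and ESC7, a pair of lines derived from parthenogenetic embryos, which carry maternal genomes alone, and ESC11, derived from an embryo fertilised in vitro (IVF). All ESCs were grown on feeder cells in a serum-replacement medium with FGF2, activin A, the GSK3 inhibitor CH and the Wnt inhibitor IWR-1, received the ROCK inhibitor Y-27632 for a day after passaging, and were magnetically sorted for SSEA1 before RNA extraction, whereas the labels give the fibroblasts neither these factors nor the sort. Each ESC group is thus 1 line, and the IVF origin is represented by ESC11 alone, so that embryo origin and the line cannot be told apart. The labels do not say whether the 3 libraries of a group are separate cultures, so the p-values below measure the spread between these libraries, which may be technical.

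The cytosolic ribosome is built from ribosomal RNA and a set of proteins that are needed in near-equal amounts, and most of its proteins are made from a single functional gene. Their mRNAs are short and abundant and begin with a terminal oligopyrimidine (TOP) tract, through which mTOR signalling adjusts their translation. Ribosome production is high in growing cells, and a few genes have paralogues, such as RPL22L1 beside RPL22, whose products can take the place of the main form in the particle.

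Levels are given as deposited, in FPKM, that is, fragments counted on a locus divided by its transcript length and by the number of mapped fragments. Read totals are not part of the table, so the depth is unknown. Tests were made on log2(FPKM + 1), with each library centred on the median of its Ensembl loci. A gene passed the test where the adjusted p was under 0.05, in limma with Benjamini-Hochberg adjustment over all 18278 loci that reached 1 FPKM in at least 3 libraries. Of the 79 members, 75 were tested. The row named RPL10L, that named RPL28 and that named RPS4Y1 were listed at 0 in every library. RPS15A was listed at 0 in 11 libraries and at 0.45 FPKM in ESC7 replicate 3. An unannotated locus that also bears the name RPS15A was at 283 ± 9.72 FPKM (SD, n = 3) in fibroblasts and 408 ± 31.6 (n = 9) in ESCs. RPL10 and RPLP0 had no annotated locus at all. The row named RPS4Y1 lies on chromosome 15, and the row named RPL36A is described in the table as RPL36A-like, on chromosome 1. For 35 members the table held several annotated loci of the same symbol. The other loci carried more than 10% of the symbol's summed FPKM for 5 members, namely RPL23A, RPS21, RPL14, RPL15 and RPL31. Ribosomal protein genes have many near-identical processed copies, so among annotated loci the division of reads between copies is uncertain for these 5 above all. Unannotated loci were not counted in that share. Those named RPL7 and RPSA had means of 8709 and 954 FPKM, beside 876 and 1310 for the members, so the division is uncertain there too.

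The defining markers matched the labelled cell types. The summed FPKM of 7 pluripotency genes was 1.31 to 1.74 in fibroblasts and 2760 to 3064 in ESCs, and that of 8 fibroblast genes was 16024 to 16200 in fibroblasts and 70.9 to 110.03 in ESCs. EPCAM was at 0 in every fibroblast library, LUM at 0 in ESC3 and POSTN at 0 in ESC11. The 5 blood and endothelial genes summed to at most 7.16 FPKM and the 3 endoderm genes to at most 0.174 in any library. CDX2 was at 0 in all groups except ESC11. KRT7 was represented by an unannotated locus of 117 bp with a mean of 14324 FPKM in fibroblasts, which set the sum of the trophectoderm list. That sum overlapped between fibroblasts and ESCs, at 4242 to 24514 FPKM in fibroblasts and 0.0171 to 24207 in ESC3. It was 4198 to 6577 in ESC7 and 3066 to 6428 in ESC11. PAX6 was at 0 in ESC3 and ESC7, and the 3 measured neural genes summed to 47.5 to 54.8 FPKM in ESC7 and 233 to 268 in ESC3, almost all of it TUBB3. The neural sum was 154 to 164 FPKM in fibroblasts and 139 to 149 in ESC11. Loci shorter than 300 bp held 54.8% to 80.6% of all summed FPKM, a share that varied within groups. It was lowest in ESC11, at 54.8% to 60.7%, and lay between 70.7% and 80.6% in the other groups, without overlap. The part of these quantities in the differences below was not tested. In bulk RNA, fewer cells of a type and less RNA per cell cannot be told apart.

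Ribosomal protein genes were among the most abundant transcripts in all 4 groups. Of the 79 members, 22 had a mean of at least 1000 FPKM and 45 lay between 100 and 1000. RPS18, which sits at the head of the small subunit, had the highest mean, 2550 FPKM. RPS20 followed with 2111 FPKM and RPS12 with 1940 FPKM. RPS18 was at 1770 ± 11.6 FPKM (SD, n = 3) in fibroblasts and 2811 ± 382 (n = 9) in ESCs. The ESC spread was wide enough that values of RPS18, RPS20 and RPS12 overlapped between different libraries. Within every library RPS18 was above RPS20 and RPS20 above RPS12. The 6 members between 10 and 100 FPKM were RPL22L1, RPL26L1, RPL23A, RPL7L1, RPL31 and RPS27L, which include 4 paralogues of other members. The lowest tested members were RPL13A, at a mean of 3.98 FPKM on an unplaced scaffold, and RPL37A, at 2.80 FPKM on a locus of 267 bp. The order of levels was close to the same in every group: across the 75 tested members, Spearman's rho between group means was 0.98 for fibroblasts against each ESC line and 0.996 to 0.997 between lines, with genes as points and gene length as well as locus structure shared.

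**Figure D1:**
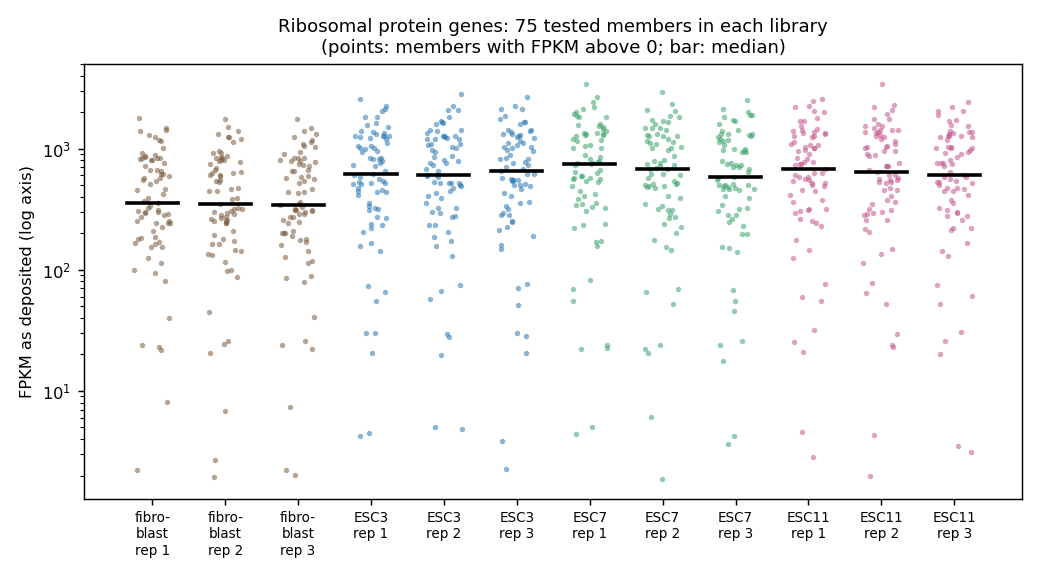
FPKM as deposited (vertical log axis) of the 75 tested ribosomal protein genes in each of the 12 libraries (horizontal axis); each point is a gene with a value above 0 and each bar is the median of the library. The medians lie between 341 and 354 FPKM in the 3 fibroblast libraries and between 579 and 742 FPKM in the 9 ESC libraries.

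As a set, the genes stood higher in ESCs than in fibroblasts. The median of the 75 tested genes in a library was 347 ± 6.44 FPKM (SD, n = 3) in fibroblasts. The ESC medians were 622 ± 21.2 FPKM for ESC3, 665 ± 81.8 for ESC7 and 640 ± 36.7 for ESC11. Every ESC library lay above every fibroblast library, and ESC7 had the widest spread. The summed FPKM of all 79 genes was 37247 ± 234 in fibroblasts and 60420 ± 3010 (n = 9) in ESCs. The share of the members in the summed FPKM of Ensembl loci leaves out RPS19, whose row is not an Ensembl locus. In that share the groups overlapped, at 6.91% to 7.46% in fibroblasts and 5.84% to 10.8% in ESCs. The ESC3 libraries lay between 5.84% and 8.86% and the ESC7 libraries between 9.73% and 10.8%.

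After centring, 64 of the 75 tested genes rose in ESCs and 2 fell, while 9 did not pass. The background for this count is high, since 85.4% of all tested loci passed, 49.2% being higher and 36.2% lower. The share of members passing, 88%, was thus near the background, and 85.3% of the members were higher. The median log2 difference was 0.45, against 0.19 for all tested loci. It was 0.45 for the 45 large-subunit genes, of which 37 rose and 1 fell, and 0.45 for the 30 small-subunit genes, of which 27 rose and 1 fell. The 861 other Ensembl loci with a mean of at least 100 FPKM, a reference added after the values were seen, had a median of 0.51, with 540 higher and 242 lower, so the member median was not above that of other strongly expressed genes. The size depends on the scaling. The member median was 0.70 with the values as deposited and 0.25 when libraries were centred on all Ensembl rows, with 72 genes higher and 1 lower in the first case and 46 higher and 3 lower in the second. These scalings shifted the median of all tested loci as well, to 0.44 and to -0.01. Relative to that median the members stood 0.26 higher in all 3 cases. That likeness was fixed in advance, because the 3 scalings differ only by 1 constant per library. Relative to the same median, the members stood 0.21 higher with median-ratio scaling and 0.43 higher with quantile normalization. Groups did not overlap for 55 genes that were higher in ESCs (40.8% of all tested loci) and for 2 that were lower (31.2%). Few members changed by a large amount: 4 rose by a log2 difference of at least 1, where 20.6% of all tested loci did.

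**Figure D2:**
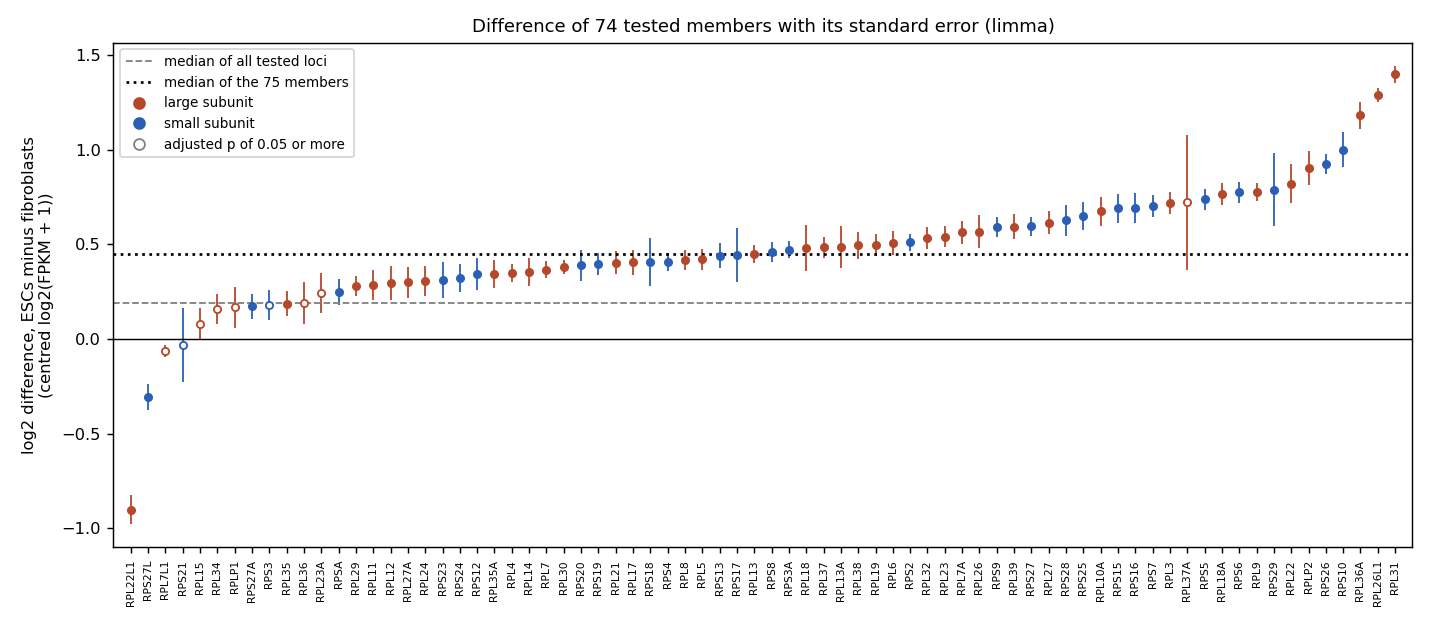
Log2 difference of 74 of the 75 tested genes (horizontal axis, in rising order), ESCs minus fibroblasts, on the centred log2(FPKM + 1) scale (vertical axis); bars are standard errors from limma, filled points passed the test and open points did not. The genes run from RPL22L1 at -0.90 to RPL31 at 1.40; the horizontal lines mark the medians of all tested loci at 0.19 and of the members at 0.45.

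Of the structural genes of the large subunit, RPL3 and RPL39 both rose. RPL3, which lies at the peptidyl transferase centre, was at 846, 862 and 828 FPKM in the fibroblast libraries and at 1528 to 1816 in the 9 ESC libraries, with no overlap. Its log2 difference was 0.72 ± 0.06 (SE; limma, adjusted p = 5.63e-07). RPL39, a small protein of the exit tunnel encoded on the X chromosome, was at 291, 285 and 308 FPKM in fibroblasts and rose by 0.59 ± 0.07 (limma, adjusted p = 1.01e-05), with means of 525, 538 and 526 FPKM in ESC3, ESC7 and ESC11. The 3 lines were within their spread of each other.

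RPL5 and RPL11, which bind 5S rRNA and, when free of the ribosome, MDM2, were also higher in ESCs. RPL5 was at 838, 768 and 774 FPKM in fibroblasts and at 1263 ± 49.8 in ESCs (log2 difference 0.42 ± 0.05, limma, adjusted p = 2.54e-05). RPL11 was at 545, 548 and 516 FPKM in fibroblasts and at 780 ± 63.7 in ESCs (0.29 ± 0.08, limma, adjusted p = 0.00559). The RPL11 libraries did not overlap either, but its call was lost without fibroblast replicate 3 (adjusted p = 0.0795) and when libraries were centred on all Ensembl rows or scaled by median ratios.

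The 2 measured acidic proteins of the stalk, which recruits translation factors to the large subunit, differed in size of change. RPLP2 was at 280, 259 and 301 FPKM in fibroblasts and between 545 and 733 in ESCs, and rose by 0.90 ± 0.09 (limma, adjusted p = 2.82e-06). RPLP1, its partner in the stalk, was at 1188 ± 18.2 FPKM in fibroblasts and 1597 ± 185 in ESCs, and its difference of 0.17 ± 0.11 did not pass (limma, adjusted p = 0.164; 0.0456 without ESC7 replicate 3). The third stalk protein, RPLP0, has no annotated locus here. Whether the 2 differences differ from each other was not tested.

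The largest rises on the large subunit among tested members were at RPL31, RPL26L1 and RPL36A. RPL31, a surface protein near the tunnel exit, was at 8.09, 6.88 and 7.31 FPKM in fibroblasts. The ESC3 libraries gave 30.2, 27.7 and 28.2 FPKM, the ESC7 libraries 22.1, 22.2 and 23.9, and the ESC11 libraries 25.1, 24.0 and 25.9. All 9 ESC libraries were above all fibroblast libraries, with a log2 difference of 1.40 ± 0.05 (limma, adjusted p = 3.03e-10). Its locus on chromosome 3 (chr3:55676567-55841538, Sscrofa10.2) spans 164972 bp, and other loci named RPL31 held 16.9% of the symbol's FPKM. The locus named RPL36A was at 125, 135 and 114 FPKM in fibroblasts and at 339 ± 24.6 in ESCs, a log2 difference of 1.18 ± 0.07 (limma, adjusted p = 4.43e-08).

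On the small subunit, RPS10 and RPS26 led. RPS10, at the head of the subunit, was at 338, 317 and 365 FPKM in fibroblasts and between 722 and 1011 in ESCs, and rose by 1.00 ± 0.09 (limma, adjusted p = 1.61e-06). RPS26, a protein of the mRNA exit channel, was at 182, 178 and 178 FPKM in fibroblasts and at 409 ± 6.26 in ESC3, 412 ± 31.4 in ESC7 and 398 ± 20.8 in ESC11. Its fibroblast libraries differed by less than 5 FPKM, and its log2 difference was 0.92 ± 0.05 (limma, adjusted p = 2.19e-08).

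RPS6, the substrate of the S6 kinases, was at 660, 644 and 650 FPKM in fibroblasts and 1328 ± 69.2 in ESCs, and rose by 0.78 ± 0.06 (limma, adjusted p = 2.14e-07). RPS19, the gene most often mutated in Diamond-Blackfan anaemia, was at 168, 163 and 160 FPKM in fibroblasts and 258 ± 20.2 in ESCs, and rose by 0.39 ± 0.06 (limma, adjusted p = 7.84e-05). RPSA, which is also known as a laminin receptor, rose less, from 999 ± 46.0 to 1414 ± 92.9 FPKM (0.25 ± 0.07, limma, adjusted p = 0.00728). The RPSA call was lost without fibroblast replicate 1 or without replicate 2, and with 3 of the other scalings.

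The X chromosome carried RPS4, the X-linked form of this small-subunit gene, besides RPL39. RPS4 was at 812, 793 and 830 FPKM in fibroblasts and at 1257 ± 22.2 in ESC3, 1301 ± 28.9 in ESC7 and 1285 ± 34.2 in ESC11, a rise of 0.41 ± 0.05 (limma, adjusted p = 1.07e-05). Between parthenogenetic and IVF-derived lines neither X-linked gene passed, with log2 differences of -0.04 ± 0.05 for RPS4 and -0.02 ± 0.07 for RPL39 (limma, adjusted p = 0.600 and 0.857).

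The 9 genes that did not pass were RPL7L1, RPL15, RPL23A, RPL34, RPL36, RPL37A, RPLP1, RPS3 and RPS21. RPL37A, listed at 0 in fibroblast replicate 1 and at 5.01 FPKM at most elsewhere, had the largest standard error (0.72 ± 0.36, limma, adjusted p = 0.0802). Its difference was 0.13 without fibroblast replicate 1 and 0.96 without fibroblast replicate 3, and it passed in the latter case and with the values as deposited (limma, adjusted p = 0.0464 and 0.0241). RPS21 ranged from 505 to 1030 FPKM within the ESCs and from 529 to 725 in fibroblasts, and its difference was -0.03 ± 0.19. RPL15 and RPL23A share their symbol with other loci of appreciable level.

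The 4 paralogues RPL22L1, RPL26L1, RPS27L and RPL7L1 are set beside their partners here. RPL22L1 fell while RPL22 rose. RPL22, an RNA-binding protein of the large subunit that is dispensable for translation in general, was at 659, 666 and 584 FPKM in fibroblasts and at 1342 ± 141 in ESCs (log2 difference 0.82 ± 0.10, limma, adjusted p = 2.51e-05). RPL22L1 (chr13:118437979-118499732, Sscrofa10.2) was at 94.5, 97.7 and 85.9 FPKM in fibroblasts. The ESC3 libraries gave 65.6, 66.9 and 75.8 FPKM, the ESC7 libraries 54.7, 51.7 and 45.5, and the ESC11 libraries 59.1, 52.2 and 61.1. Every ESC library was below every fibroblast library, in FPKM as in the centred values, and the log2 difference was -0.90 ± 0.08 (limma, adjusted p = 9.87e-07). It fell by 0.65 on the log2 scale with the values as deposited.

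RPL26L1 rose more than RPL26. RPL26, the main form, was at 347 ± 6.44 FPKM in fibroblasts and 614 ± 61.4 in ESCs (0.57 ± 0.09, limma, adjusted p = 0.000111). RPL26L1 (chr16:55580786-55590313, Sscrofa10.2) was at 23.0, 25.9 and 24.1 FPKM in fibroblasts. The ESC3 libraries gave 73.9, 74.3 and 70.7 FPKM, the ESC7 libraries 69.0, 69.7 and 67.5, and the ESC11 libraries 75.8, 77.4 and 74.9. Its log2 difference was 1.29 ± 0.04 (limma, adjusted p = 1.34e-10), with no overlap of the groups.

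RPS27L, a paralogue of RPS27, hardly moved in FPKM, at 21.4 ± 0.735 in fibroblasts and 20.6 ± 1.57 in ESCs, and those values overlapped. Relative to the library median it fell by 0.30 ± 0.07 on the log2 scale (limma, adjusted p = 0.00166), but with the values as deposited the difference was -0.05 and did not pass (limma, adjusted p = 0.440). RPS27 rose from 265 ± 6.82 to 478 ± 30.2 FPKM (0.59 ± 0.05, limma, adjusted p = 1.13e-06). RPL7L1, an RPL7-like protein of the nucleolus, was at 24.6 ± 1.01 FPKM in fibroblasts, 29.8 ± 0.243 in ESC3, 24.5 ± 1.17 in ESC7 and 30.6 ± 0.973 in ESC11. Its difference did not pass (-0.06 ± 0.03, limma, adjusted p = 0.0982) and changed sign with the scaling, being 0.19 as deposited and -0.26 when centred on all Ensembl rows, both of which passed. It also passed without any 1 of the fibroblast replicates, at -0.14, -0.13 and -0.10 without replicates 1, 2 and 3 (limma, adjusted p = 0.00695, 0.0145 and 0.0350). RPL7 was at 626 ± 20.1 FPKM in fibroblasts and 960 ± 36.7 in ESCs. An unannotated locus of 192 bp that also bears the name RPL7, left out here, was at 3198 to 8579 FPKM in fibroblasts and 5443 to 17196 in ESCs.

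The ratio of a paralogue to its partner within a library does not depend on the scaling of that library. RPL22L1 stood at 14.6% ± 0.204 of RPL22 (SD, n = 3) in fibroblasts and at 4.46% ± 0.846 (n = 9) in ESCs. RPL26L1 stood at 7.02% ± 0.501 of RPL26 in fibroblasts and 11.9% ± 1.22 in ESCs. RPS27L fell from 8.09% ± 0.422 to 4.33% ± 0.379 of RPS27, and RPL7L1 from 3.93% ± 0.0705 to 2.96% ± 0.389 of RPL7. In each of these 4 ratios all 9 ESC libraries lay on the same side of the 3 fibroblast libraries. An exact permutation test (two-sided) gave p = 0.00909, the smallest this design can give, and 0.00909 after Benjamini-Hochberg adjustment over the 4 ratios. It treats libraries as exchangeable although the 9 come from 3 lines, so its p does not measure a spread between lines or animals. Such separation was common: of all tested single loci, 40.8% were higher in ESCs without overlap and 31.2% lower. The share among ratios of other gene pairs was not computed. Among the lines, RPL22L1 was at 5.31% to 5.51% of RPL22 in ESC3, 3.46% to 3.99% in ESC7 and 3.65% to 4.83% in ESC11. RPL7L1 was likewise lowest against RPL7 in ESC7, at 2.29% to 2.67%, where ESC3 had 3.10% to 3.18% and ESC11 3.12% to 3.36%.

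**Figure D3:**
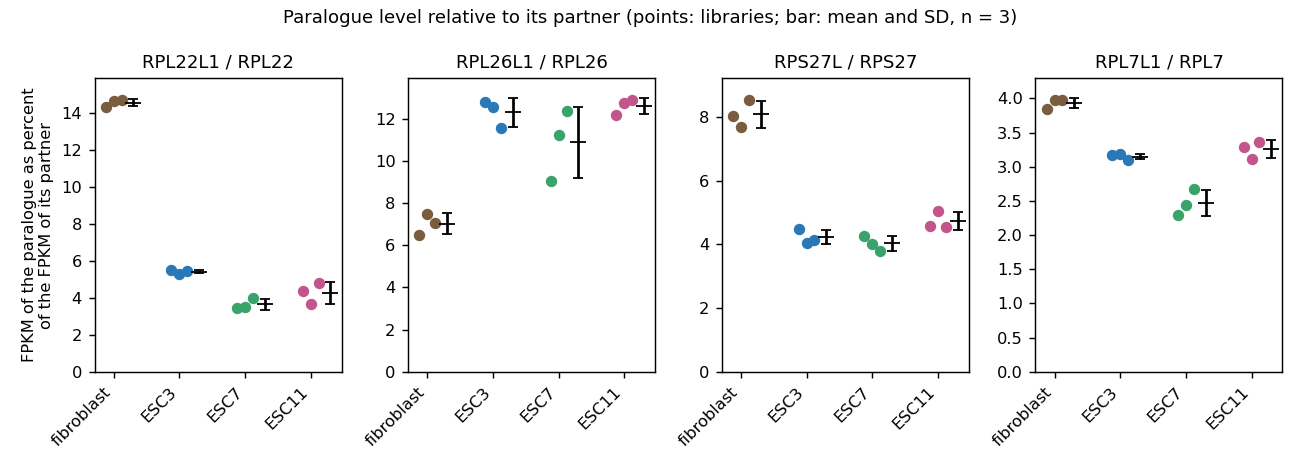
FPKM of each paralogue as a percentage of the FPKM of its partner (vertical axes, each from 0) in the 4 groups (horizontal axis); points are libraries and bars are the mean and SD of 3 libraries. RPL26L1 is at 6.50% to 7.49% of RPL26 in fibroblasts and at 9.03% to 12.9% in ESCs, whereas the other 3 paralogues are lower against their partners in every ESC library than in any fibroblast library.

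Each line taken alone against the fibroblasts, which are the same 3 libraries each time, gave similar counts. ESC3 had 62 genes higher and 2 lower of 75, where 82.9% of all tested loci passed, 47.6% being higher and 35.4% lower. ESC7 had 62 higher and 3 lower, with 82% of loci passing, 46.7% higher and 35.3% lower. ESC11 had 61 higher and 2 lower, with 82.4% of loci passing, 47% higher and 35.4% lower. The gene that was lower in ESC7 beside RPL22L1 and RPS27L was RPL7L1, at -0.29 (limma, adjusted p = 6.38e-05). The RPS27L call in ESC11 (-0.23, limma, adjusted p = 0.0250) was lost without ESC11 replicate 1 or without replicate 3.

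Between the ESC lines the genes differed little. Parthenogenetic ESC3 and ESC7 against IVF-derived ESC11 gave 3 of 75 genes that passed, 4% of them, where 20% of all tested loci did. The median log2 difference was -0.03 and the median absolute difference was 0.058, against 0.113 for all tested loci. It was 0.087 for the 861 other Ensembl loci with a mean of at least 100 FPKM. The median standard error was 0.071 for the members, 0.071 for all tested loci and 0.046 for those 861 loci. ESC7 against ESC3, the pair of parthenogenetic lines, gave 6 genes, 2 higher and 4 lower, where 40.4% of all tested loci passed, 19.8% higher and 20.6% lower. This comparison had a median of 0.01 and a median absolute difference of 0.063, against 0.198 for all tested loci and 0.172 for the 861 loci. ESC3 against ESC11 gave 2 genes (23%) and ESC7 against ESC11 gave 6 (30.7%). No member differed by a log2 value of 1 or more between lines. Among all tested loci, those that passed with a difference of that size made up 2.15% for parthenogenetic against IVF-derived lines, 3.29% for ESC7 against ESC3, 2.5% for ESC3 against ESC11 and 2.77% for ESC7 against ESC11. The counts moved with single libraries: ESC7 against ESC3 gave 10 genes without ESC7 replicate 3, 7 of them higher, and ESC7 against ESC11 gave 9 without ESC7 replicate 1 and 3 without ESC11 replicate 1. ESC7 was the least uniform group for these genes, with a median coefficient of variation between libraries of 7.61%, against 3.09% in ESC3, 5.44% in ESC11 and 3.82% in fibroblasts. Under quantile normalization the member levels themselves shifted between lines, and 54 of 75 genes were then lower in the parthenogenetic lines and 1 higher, where 11.9% of all tested loci were lower and 9.18% higher.

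**Figure D4:**
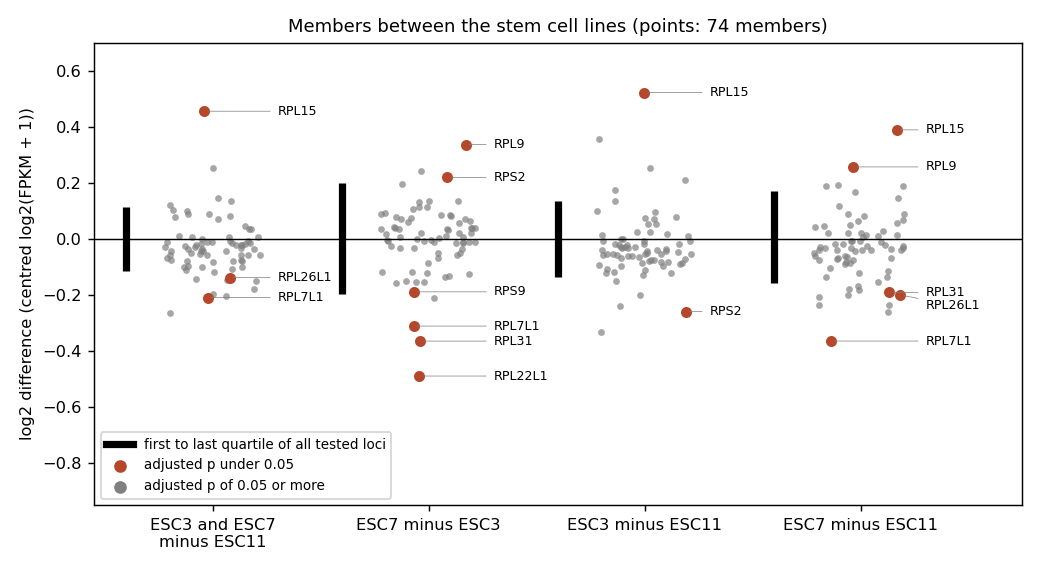
Log2 differences of 74 of the 75 tested genes between ESC lines (vertical axis, centred log2(FPKM + 1)) in 4 comparisons (horizontal axis); each point is a gene, coloured points passed the test, and the black bar beside each set runs from the first to the last quartile of all tested loci. Most genes lie within 0.25 of 0, and RPL15 in ESC3 minus ESC11, at 0.52, is the largest difference.

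RPL15, a core protein of the large subunit, was higher in both parthenogenetic lines than in ESC11. It was at 204, 171 and 211 FPKM in the ESC3 libraries and at 174, 177 and 198 in the ESC7 libraries. The ESC11 libraries gave 124, 148 and 131 FPKM and the fibroblasts 152, 131 and 119. All 6 parthenogenetic libraries were above all 3 ESC11 libraries, while in FPKM ESC11 was at the level of the fibroblasts. On the centred scale the log2 difference of ESC11 from fibroblasts was -0.22 ± 0.11 and did not pass (limma, adjusted p = 0.0709). The log2 difference of parthenogenetic against IVF-derived lines was 0.46 ± 0.09 (limma, adjusted p = 0.00637). It was 0.52 ± 0.11 for ESC3 against ESC11 (limma, adjusted p = 0.00585) and 0.39 ± 0.11 for ESC7 against ESC11 (limma, adjusted p = 0.0187), the last of which was lost without ESC7 replicate 3, ESC11 replicate 1 or ESC11 replicate 3. The RPL15 locus on chromosome 13 (chr13:12166731-12258845, Sscrofa10.2) spans 92115 bp, and other loci named RPL15 held 27.3% of the symbol's FPKM.

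The other 2 genes that passed between parthenogenetic and IVF-derived lines were paralogues. RPL26L1 was lower by 0.14 ± 0.04 (limma, adjusted p = 0.0413), a call that leaving out any of 10 of the 12 libraries removed, all except fibroblast replicates 1 and 2 (adjusted p 0.0512 to 0.114). RPL7L1 was lower by 0.21 ± 0.04 (limma, adjusted p = 0.00247). It is named although its groups overlapped, and the ESC3 libraries at 29.5 to 30.0 FPKM were close to the ESC11 libraries at 29.6 to 31.5. Its difference from ESC11 was -0.05 in ESC3 (limma, adjusted p = 0.393) and -0.36 in ESC7 (limma, adjusted p = 0.000117).

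Between ESC7 and ESC3, RPL9 and RPS2 were higher in ESC7 and 4 genes were lower. RPL9, a large-subunit protein of the stalk base, was at 542, 519 and 564 FPKM in the ESC3 libraries and at 742, 692 and 678 in the ESC7 libraries. The ESC11 libraries gave 587, 555 and 557 FPKM, so that ESC7 stood above both other lines. Its log2 difference was 0.34 ± 0.06 against ESC3 (limma, adjusted p = 0.00101) and 0.26 ± 0.06 against ESC11 (limma, adjusted p = 0.00687), the latter turning to -0.15 under quantile normalization. RPS2, at the mRNA entry site of the small subunit, was low in ESC3 instead: it was at 1118, 1060 and 1074 FPKM there, 1298 ± 27.4 in ESC7 and 1283 ± 56.2 in ESC11. RPS2 differed by 0.22 ± 0.06 between ESC7 and ESC3 (limma, adjusted p = 0.0121) and by -0.26 ± 0.06 between ESC3 and ESC11 (limma, adjusted p = 0.00962). Centring on all Ensembl rows or quantile normalization removed the first of these RPS2 calls.

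The 4 genes lower in ESC7 than in ESC3 were RPL22L1, RPL31, RPL7L1 and RPS9. RPL22L1 was lower by 0.49 ± 0.10 (limma, adjusted p = 0.00238), RPL31 by 0.36 ± 0.06 (limma, adjusted p = 0.000627) and RPL7L1 by 0.31 ± 0.04 (limma, adjusted p = 0.000193), each with no overlap between the lines. RPS9, an early-assembling protein of the small subunit, was at 828, 792 and 826 FPKM in ESC3 and 766, 711 and 730 in ESC7 (-0.19 ± 0.07, limma, adjusted p = 0.0426). The RPS9 call was lost in 7 of the 12 fits that left out 1 library, with adjusted p from 0.0517 upward, these being fibroblast replicate 1, each ESC3 replicate, ESC7 replicates 2 and 3 and ESC11 replicate 3.

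The genes that serve the ribosome from outside were read from 4 lists. Of the translation factors and other proteins made from TOP mRNAs, 24 of 26 were tested, and 22 rose in ESCs, with a median of 0.56, where 49.2% of all tested loci were higher and 36.2% lower. The other 2, EIF4A2 and TPT1, had differences of 0.03 and -0.03 that did not pass. Among those that rose are ribosomal components that the symbol rule does not match, such as FAU, which rose by 0.47, and RACK1, which rose by 0.63. HNRNPA1, an RNA-binding splicing factor, went from 464 FPKM in fibroblasts to 1497, 1272 and 1493 in ESC3, ESC7 and ESC11 (1.36 ± 0.05, limma, adjusted p = 3.94e-10), and NPM1, a nucleolar chaperone, rose by 1.06 ± 0.05. The row of EEF1A1, the main elongation factor, was listed at 0 throughout.

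Of 44 tested ribosome assembly factors, 41 rose and 1 fell, with a median of 0.75, against the same background of 49.2% higher and 36.2% lower. FBL, the methyltransferase of box C/D particles, was at 48.6, 49.4 and 51.7 FPKM in fibroblasts and between 166 and 212 in ESCs (1.67 ± 0.03, limma, adjusted p = 4.72e-12), and NOC4L, a factor of small-subunit assembly, rose by 1.64 ± 0.03. SBDS, which acts late on the large subunit, fell by 0.21 ± 0.03 on the log2 scale, but its FPKM overlapped between the groups, and with the values as deposited the difference was 0.04 and did not pass (limma, adjusted p = 0.208). All 13 RNA polymerase I genes rose, with a median of 0.93. TAF1D rose by 1.40 ± 0.05 and TTF1 by 1.20 ± 0.05. With libraries centred on all Ensembl rows or scaled by median ratios, 12 of the 13 were higher and 1 lower. The TOP mRNA list then had 21 higher and 1 lower, and the assembly factors had 38 higher, with 4 lower under the first scaling and 3 under the second. The medians of these 3 lists stood above the 0.45 of the ribosomal protein genes, a difference between lists that was not tested.

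Of 22 tested growth control genes 8 rose and 8 fell, with a median of -0.01, where 49.2% of all tested loci were higher and 36.2% lower. MYCN was at 0.201 FPKM at most in fibroblasts and at 44.5, 35.4 and 53.2 in ESC3, ESC7 and ESC11 (5.13 ± 0.06, limma, adjusted p = 1.35e-13). MYCL rose by 1.81 ± 0.04, while MAX, the partner of the MYC proteins, fell by 0.90 ± 0.11. EIF4EBP1, the translation repressor that mTOR phosphorylates, fell from 140 to 42.7, 37.9 and 39.3 FPKM (-2.04 ± 0.05). With the values as deposited 14 of these 22 genes were higher and 7 lower, and with libraries centred on all Ensembl rows 8 were higher and 13 lower. Under these scalings 16029 and 15451 of the 18278 tested loci passed, and the median of all tested loci was 0.44 and -0.01.

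Between ESC7 and ESC3, the list medians were not alike. Of the assembly factors 34 of 44 were lower in ESC7, with a median of -0.29, and of the RNA polymerase I genes 11 of 13 were lower, with a median of -0.28, the rest not passing. Among all tested loci, 20.6% were lower. The ribosomal protein genes had a median of 0.01 in the same comparison, with 2 higher and 4 lower. The TOP mRNA list lay near them, with a median of -0.03, 2 higher and 5 lower. The difference between the lists was not tested. Against ESC11, the parthenogenetic lines had 1 of 44 assembly factors higher and 13 lower, with a median of -0.08, where 9.72% of all tested loci were higher and 10.3% lower.

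**Figure D5:**
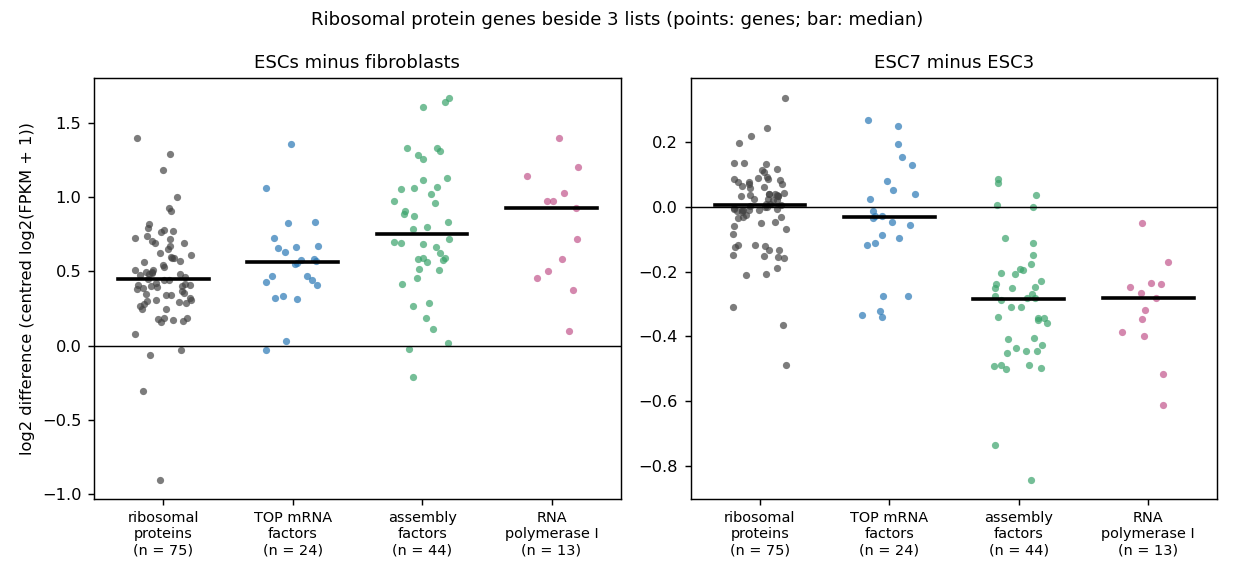
Log2 differences (vertical axes, centred log2(FPKM + 1)) of the ribosomal protein genes and of the genes of 3 lists (horizontal axis), for ESCs minus fibroblasts on the left and ESC7 minus ESC3 on the right; points are genes and bars are medians. On the left all 4 medians are above 0, from 0.45 to 0.93; on the right the ribosomal proteins and TOP mRNA factors are centred near 0 and the assembly factors and RNA polymerase I genes near -0.28.

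The genes whose centred levels ran most like RPL22L1 over the 12 libraries, by Pearson's r, were SHROOM4 (0.990), ZBED3 (0.985), FBXO28 (0.978), HIST1H2BM (0.978) and GTF2E2 (0.978). For RPS27L they were SEP15 (0.934), APLF (0.931), LAMTOR4 (0.924), EBPL (0.923) and PRKAR2A (0.921). These values are descriptions over libraries of 4 groups, in which the step between fibroblasts and ESCs is shared by all of these genes.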

How the data were processed

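The deposited table holds FPKM per locus for 12 libraries, made by the authors. Cufflinks 2.1.1 and STAR 2.4.0b, with the genome build Sscrofa10.2, appear in the submitters' processing notes without a stated role; filters and strandedness are not given in the sources used here. Coordinates are those of the deposited table. No sequences were used.

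FPKM were transformed as log2(FPKM + 1) and centred on each library's median over tested Ensembl loci. A locus was tested at 1 FPKM or more in at least 3 libraries. One limma 3.58.1 fit (R 4.3.3; mean-variance trend, two-sided tests) with 4 group means over all 12 libraries gave every comparison; p-values were adjusted over all 18278 tested loci. The script was tested on simulated data. The members, gene lists and marker lists (pluripotent, fibroblast, blood and endothelial, neural, trophectoderm, endoderm) were chosen with earlier results of these data known. Genes were named by fixed paralogue and role lists, plus up to 6 in each direction per main comparison that passed without overlap and reached 5 FPKM in the higher group, the 3 highest and lowest levels and up to 2 per direction of each list. Paralogue ratios were compared by exact permutation (scipy 1.17.1). Alternatives covered scaling, pseudocount, filters, variance settings, summed loci, a replicate block and leaving out each library. Loci spanning at least 1 kb were tried after the data were seen. Unannotated loci were left out. Some genes are not reported here.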

Additional observations from a re-analysis of the deposited data

Results flagged for a closer look

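The members named here differed between ESC lines by the test of that difference, and the values are log2 differences. Against ESC3, ESC7 was lower at RPL22L1 (-0.49), RPL31 (-0.36), RPL7L1 (-0.31) and RPS9 (-0.19) and higher at RPL9 (0.34) and RPS2 (0.22). Against ESC11, ESC3 was higher at RPL15 (0.52) and lower at RPS2 (-0.26). Against ESC11, ESC7 was higher at RPL15 (0.39) and RPL9 (0.26) and lower at RPL7L1 (-0.36), RPL26L1 (-0.20) and RPL31 (-0.19). The RPL31 difference from ESC11 was lost without ESC7 replicate 1, ESC7 replicate 2, ESC11 replicate 1 or ESC11 replicate 3.

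Ribosomal protein names also stood on unannotated loci that the comparisons left out. Of all tested loci, 40.8% were higher in every ESC library than in any fibroblast library on the centred scale. So were, in FPKM, 4 of these unannotated loci among those with a mean of at least 100 FPKM. The ESC means were RPL10 at 160 FPKM, RPS15A at 408 FPKM, RPS2 at 234 FPKM on a locus of 236 bp, and RPSA at 1028 FPKM on a locus of chromosome 13 near the annotated one. In fibroblasts they were at 93.1, 283, 107 and 732 FPKM in the same order. The highest unannotated locus, named RPL7 and 192 bp long, had overlapping groups, with means of 6400 FPKM in fibroblasts and 9479 in ESCs. Loci named RPL12, RPL36A and RPS27 had ESC means of 13.4 to 15.6 FPKM and fibroblast means of 2.84 to 5.15, also without overlap of the groups. The remaining ones, named RPL23A, RPL31, RPL37A, RPLP0 and RPLP1, reached at most 5.37 FPKM in any library. The left-out loci named RPL12, RPL31 and RPS27 overlap the member of the same name in position and share its Ensembl gene number. Their values are thus not those of separate copies elsewhere in the genome.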

How the results depend on the processing

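Of 263 single-gene results, 153 kept their side of the threshold under all 27 alternatives; over all settings 6806 values stayed on their side, 137 newly passed and 126 no longer passed. The median member difference between ESCs and fibroblasts was 0.70 as deposited and 0.25 both when centred on all Ensembl rows and with median-ratio scaling (0.372 to 0.465 with 1 library left out). Quantile normalization gave 55 genes for parthenogenetic against IVF-derived lines, 42 for ESC3 against fibroblasts, 51 for ESC3 against ESC11 and 45 for ESC7 against ESC11. Of the 18278 tested loci, 3854, 14856, 4125 and 5667 passed in these comparisons. Centring on all Ensembl rows gave 11 for ESC7 against ESC3 and 4 for ESC3 against ESC11, where 8369 and 4654 of all tested loci passed. The cause was not tested. The member share over Ensembl loci of at least 1 kb, again without RPS19, was 7.80% in fibroblasts and 9.51% in ESCs. By line this share was 7.66% in ESC3, 11.4% in ESC7 and 9.44% in ESC11. Over all rows, with RPS19, the member share was 0.748% in fibroblasts and 1.29% in ESCs. By line it was 0.784% in ESC3, 1.02% in ESC7 and 2.06% in ESC11. With 1 library left out, counts of genes that passed were 59 to 71 for ESCs against fibroblasts, 2 to 4 for parthenogenetic against IVF-derived lines, 5 to 10 for ESC7 against ESC3, 52 to 67, 54 to 69 and 55 to 66 for ESC3, ESC7 and ESC11 against fibroblasts, 2 to 3 for ESC3 against ESC11 and 3 to 9 for ESC7 against ESC11. A replicate block gave 67, 3, 5, 64, 65, 64, 3 and 6 in the same order. Same-numbered libraries of different groups showed correlations of -0.09 to 0.09, and 2 of 12 libraries correlated best with one of their own number, so the numbers are not taken to pair the libraries. Without read totals, the precision of low values such as RPL37A cannot be derived from counting error.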
